A study of Arabidopsis thaliana with 12 samples.

Results

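The genes AT1G74470 and SIRB (AT1G50170) were described on arrays of Arabidopsis thaliana, wild type, ecotype Wassilevskija. They were chosen by their function in chlorophyll, tocopherol and siroheme synthesis, and each had 1 probe that the platform annotation pairs with exactly 1 gene. They are 2 of 691 genes with such a probe, on arrays of 3439 probes, and no probe shared by several genes was assigned to either. Total RNA of 6 samples of plants in water was compared with that of 6 samples of plants kept for 3 h in MS with 60 mM sucrose. The labels give no tissue, age or genotype beyond wild type, no time for water, and no group with MS or sucrose alone. The difference therefore belongs to MS, sucrose and treatment time together, and "sucrose arrays" below stands for the whole treatment.

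AT1G74470 encodes geranylgeranyl reductase, a plastid enzyme that reduces geranylgeranyl groups to the phytyl chain carried by chlorophyll and tocopherol. SIRB encodes sirohydrochlorin ferrochelatase, which inserts iron into sirohydrochlorin to give siroheme. Siroheme is the cofactor of nitrite reductase and sulfite reductase, the plastid enzymes of nitrate and sulfate assimilation. It leaves the tetrapyrrole pathway upstream of the steps that lead to heme and chlorophyll, so the products of both enzymes meet in plastid tetrapyrrole metabolism, one as the ring of siroheme and the other as the tail of chlorophyll.

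Each array gave 1 intensity per probe on a linear scale that ended at 100, and no array had either gene at that ceiling or under the floor of 0.0487 that was set for dim values. Array medians lay between 0.171 and 0.188 in water and between 0.325 and 0.49 on the sucrose arrays, whereas sums over all probes lay between 3172 and 3296 and between 3325 and 3461. The difference of AT1G74470 and of SIRB between groups is therefore given under 4 scalings: quantile normalization, cyclic loess, median centring and the values as deposited. The log2 difference of the median probe was 0.68 as deposited, in favour of sucrose, and 0 after quantile normalization. Of 14 markers of green tissue, 5 had a probe of their own. None of these 5 was at 0 on any array, and their summed intensity was 56.6 to 67.3 in water and 60.9 to 69.2 in sucrose, most of it from PSBW, a small subunit of photosystem II. After quantile normalization 2 of the 5 passed as higher, as AT1G74470 did: PSBW by 0.61 ± 0.14 (SE, limma adjusted p = 0.0053) and PRK, phosphoribulokinase of the Calvin cycle, by 0.61 ± 0.15 (adjusted p = 0.0076). The markers PSAN (0.29, limma adjusted p = 0.067) and LHB1B2 (0.14, adjusted p = 0.42) did not pass. PSBY did not pass either and was below 0 (-0.20, adjusted p = 0.19). Over all probes 20.5% were called higher in that fit, and the 5 markers were not tested against this share. As deposited PSBW differed by 0.05 and PRK by 0.60, and with median centring all 5 were below 0, from -1.18 to -0.50. The part of green tissue in the AT1G74470 result was not tested. None of 8 root markers or 7 seed and flower markers had a probe of its own, so the share of those tissues was not measured. In such RNA from many cells, fewer cells of a type and less RNA per cell cannot be told apart.

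The intensity of AT1G74470, the geranylgeranyl reductase gene, was higher in sucrose as deposited, by 1.83-fold between group means, and it rose by a similar amount after quantile normalization or cyclic loess. In water it ran from 1.56 to 1.93 with a median of 1.83, a mean of 1.78 ± 0.147 (SD, n = 6). In sucrose it ran from 2.59 to 3.61 with a median of 3.37, a mean of 3.26 ± 0.388 (SD, n = 6). The groups did not overlap, and the lowest of the 6 sucrose values was 1.34 times the highest of the 6 water values. As deposited, 37.2% of all probes separated the groups in this direction, so the separation alone is common on these arrays. The lowest values of both groups were on array 3.

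**Figure D1:**
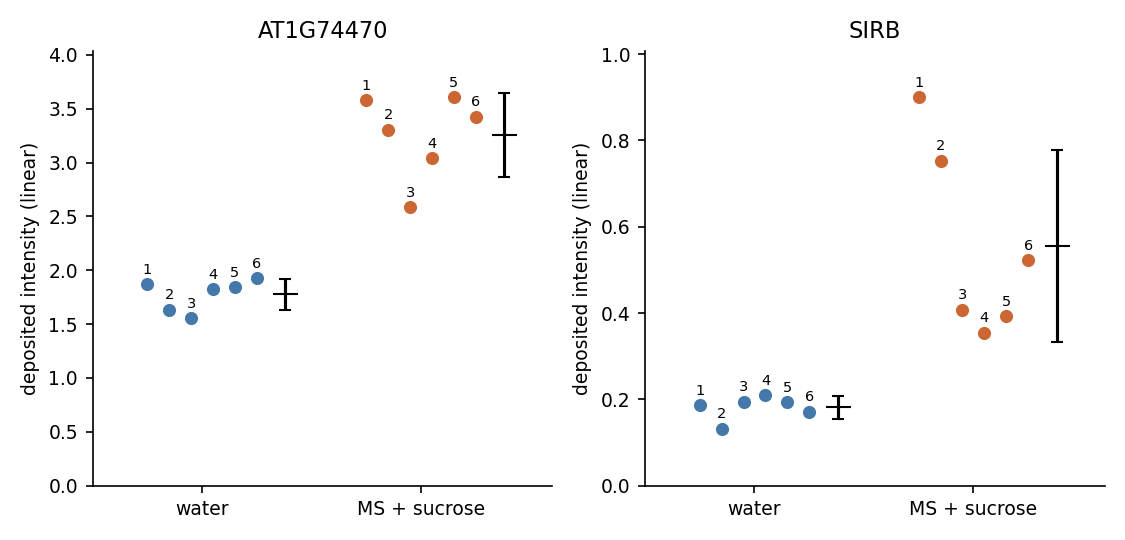
Deposited intensity (linear, from 0) of AT1G74470 and SIRB on each array, with the array number above each point and the group mean ± SD (n = 6) as a bar beside the points. All 6 sucrose arrays lie above the 6 water arrays for both genes, as for 37.2% of all probes. For SIRB, sucrose arrays 1 and 2 (0.9 and 0.753) lie above the other 4.

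After quantile normalization, AT1G74470 rose by 0.93 ± 0.11 on the log2 scale (SE, limma adjusted p = 7.1e-05, 95% interval 0.69 to 1.16), or 1.90-fold. In that fit 41.8% of all probes were called, 20.5% higher and 21.3% lower in sucrose, and the difference was larger than that of 89.1% of all probes. Among the 692 probes with 1 gene, 78 had a larger difference. Cyclic loess gave a rise of 0.95 ± 0.09 (adjusted p = 8.8e-06), beside 22.8% of all probes called higher. As deposited it was 0.87 ± 0.09 (adjusted p = 1.1e-05), beside 53.7% of all probes called higher, and only 0.19 above the median probe. With median centring the sign turned, at -0.22 ± 0.12 (adjusted p = 0.16, 95% interval -0.49 to 0.04). There, 4 of the 6 sucrose values were under the lowest water value and 1 was over the highest. No share of all probes with such counts was taken, so they only describe AT1G74470.

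SIRB, the siroheme ferrochelatase gene, was also higher in sucrose, by 2.91-fold in the limma fit as deposited and by 1.46-fold after quantile normalization. In water it ran from 0.132 to 0.209 with a median of 0.19, a mean of 0.181 ± 0.0272 (SD, n = 6). In sucrose it ran from 0.355 to 0.9 with a median of 0.465, a mean of 0.555 ± 0.222 (SD, n = 6). The deposited groups did not overlap, as was so in this direction for 37.2% of all probes. After quantile normalization 5 of the 6 sucrose arrays exceeded every water array, and with median centring 3 of 6 did. The share of all probes with such counts was not taken, so these counts only describe SIRB. The spread among sucrose arrays was wider than for AT1G74470, at 40.1% of the mean against 11.9%, and in water the shares were 15.0% and 8.27%.

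After quantile normalization SIRB rose by 0.54 ± 0.20 on the log2 scale (SE, limma adjusted p = 0.0498, 95% interval 0.10 to 0.98), just inside the threshold of 0.05. Its difference was larger than that of 79.6% of all probes, and 158 of the 692 probes with 1 gene had a larger one. Cyclic loess gave 0.50 ± 0.16 (adjusted p = 0.024) and median centring 0.45 ± 0.16 (adjusted p = 0.040), the latter beside 16.2% of all probes called higher. As deposited the rise was 1.54 ± 0.24 (adjusted p = 2.1e-04), which is 0.86 above the median probe. SIRB thus passed as higher under all 4 scalings, as did 514 of 3439 probes (14.9%), while AT1G74470 passed under 3. With 1 array left out it passed in 3 of 12 fits, those without sucrose array 3, 4 or 5, and with any other array left out adjusted p ran from 0.053 to 0.10. The call was lost in the fit with array number as a block (adjusted p = 0.12). It was also lost with arrays 1 and 2, 3 and 4, and 5 and 6 averaged, 3 against 3 (adjusted p = 0.22). In those fits AT1G74470 had adjusted p = 0.0015 and 0.018, beside 19.5% and 9.54% of all probes called higher.

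**Figure D2:**
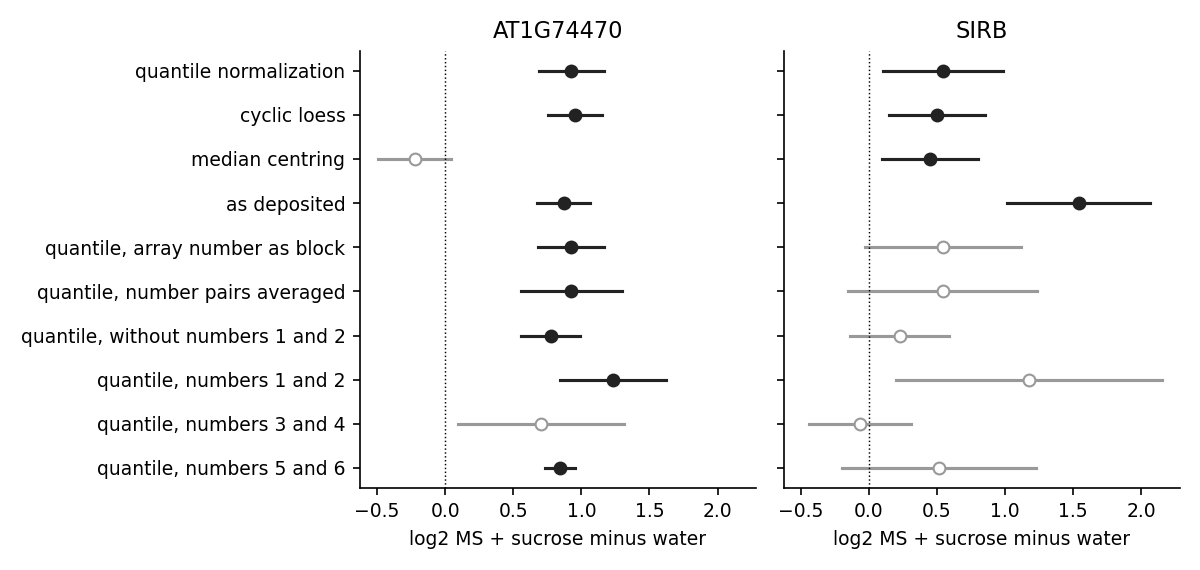
Log2 difference, sucrose minus water, of both genes from limma with its 95% interval under 4 scalings and, after quantile normalization, 6 treatments of the array numbers. Filled black points had an adjusted p under 0.05. AT1G74470 is at -0.22 with median centring and between 0.70 and 1.23 elsewhere, whereas SIRB runs from -0.07 within numbers 3 and 4 to 1.54 as deposited.

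The ratio of sucrose to water ran from 1.89 to 5.20 between pairs of arrays for SIRB and from 1.67 to 1.96 for AT1G74470. The pairs are arrays 1 and 2, 3 and 4, and 5 and 6, which the labels do not name as pairs. Across all probes their Spearman correlations were 0.942 to 0.948 in sucrose, against 0.847 to 0.923 for other combinations, and 0.959 to 0.974 against 0.933 to 0.961 in water, where the ranges overlap. In water the SIRB and AT1G74470 values themselves did not go by these pairs. For SIRB, the sucrose mean of arrays 1 and 2 was 0.827 against 0.159 in water, a ratio of 5.20. For arrays 3 and 4 it was 0.381 against 0.202, a ratio of 1.89. For arrays 5 and 6 it was 0.458 against 0.183, a ratio of 2.51. Sucrose arrays 1 and 2, where SIRB was highest, also had the highest medians over all probes, 0.479 and 0.49 against 0.325 to 0.342 on the other 4, and the part of this in the SIRB result was not tested. With array medians equalised, SIRB on sucrose arrays 1 and 2 had log2 values of -1.05 and -1.34, against -1.91 to -1.28 on the other 4.

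The AT1G74470 ratios were 1.96, 1.67 and 1.86 in the same order of arrays. Without arrays 1 and 2, AT1G74470 remained higher after quantile normalization, at 0.77 ± 0.09 (adjusted p = 0.0011), beside 17.3% of all probes called higher. SIRB without these arrays was at 0.23 ± 0.15 (adjusted p = 0.32, 95% interval -0.14 to 0.59). A limma interaction test of whether the difference varied between the 3 array pairs gave SIRB an adjusted p of 0.028 as deposited, 0.083 after quantile normalization, 0.11 with cyclic loess and 0.14 with median centring. For AT1G74470 these were 0.54, 0.17, 0.22 and 0.087, so SIRB passed under 1 scaling, AT1G74470 under none, and with median centring AT1G74470 had the smaller value. The test called 24.9%, 15.2%, 13.0% and 18.9% of all probes, with pairs that were found in these data and an error taken within pairs that may be technical repeats.

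The shift between groups depended on intensity, and the genes lie at different places on that curve. With probes ordered by mean intensity and cut into 10 bins, AT1G74470 fell in the brightest bin, in which the median difference of 344 probes was -0.07 as deposited and -1.17 with median centring. It stood 0.94 above that median under both of these scalings and 1.06 above it after quantile normalization. SIRB fell in bin 6, counted from the dimmest, in which the median difference was 1.09 as deposited and -0.01 with median centring. It stood 0.45 above the median of its bin under both and 0.51 above it after quantile normalization. After quantile normalization, 90.7% of the probes in its bin had a smaller difference than AT1G74470, and 76.5% had a smaller one than SIRB. At -0.22 with median centring, AT1G74470 thus lay above the upper quartile of its bin, whose quartiles were -1.73 and -0.71.

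**Figure D3:**
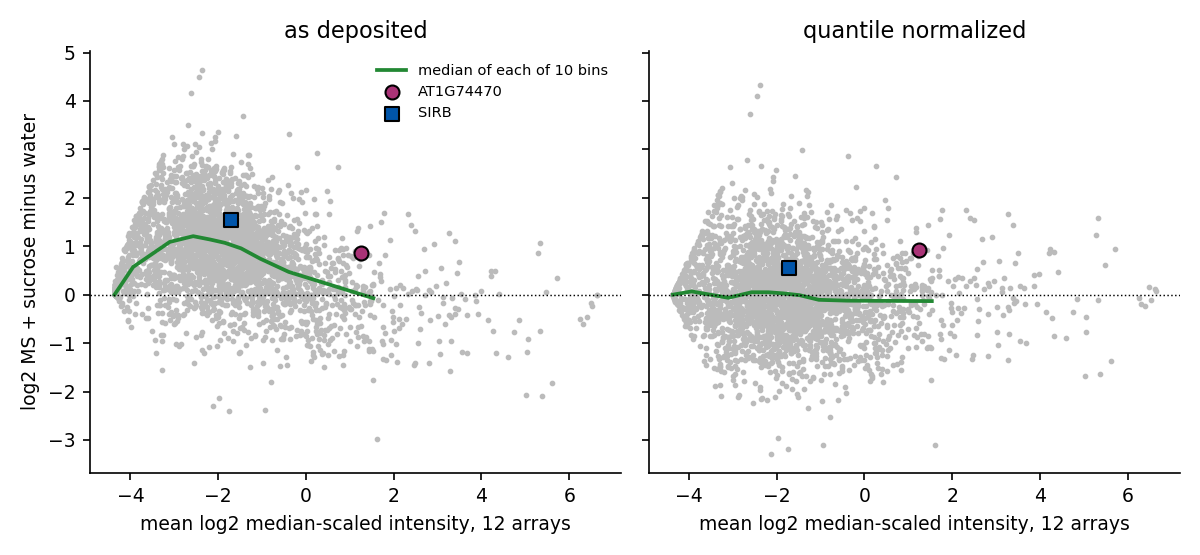
Log2 difference, sucrose minus water, of each of 3439 probes (grey) against its mean log2 median-scaled intensity over 12 arrays, as deposited and after quantile normalization, with the median of each of 10 intensity bins as a green line. As deposited the line passes 1.09 at the bin of SIRB and ends at -0.07 at the brightest bin, which holds AT1G74470, and both genes lie above the line in both panels.

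To set the genes' responses against each other without a scaling factor per array, the log2 ratio of the AT1G74470 to the SIRB intensity was taken within each array. Its level has no meaning of its own, since different probes are not on 1 scale, but its difference between groups does not depend on a scaling factor. The shift with intensity does not cancel in it. As deposited, the median difference was 1.09 in the bin of SIRB and -0.07 in that of AT1G74470. Against these medians AT1G74470 stood higher, by 0.94, than SIRB did, by 0.45. The part of this shift in the ratio was not tested. The log2 ratio was 3.30 ± 0.23 in water (SD, n = 6, range 3.00 to 3.63) and 2.63 ± 0.49 in sucrose (SD, n = 6, range 1.99 to 3.20). It was lower in sucrose at all 6 array numbers, and 4 of the 6 sucrose values were under the lowest water value. The share of other gene pairs with such counts was not taken, so these counts only describe this pair. The difference of -0.67 means that SIRB increased more than AT1G74470 in the deposited intensities (exact permutation test over all splits of the arrays, two-sided, p = 0.013). This was the only pair of genes so compared. After quantile normalization, which bends the scale by intensity, the difference was 0.38 in the other direction (exact permutation p = 0.022). Without arrays 1 and 2 it was -0.30 in the deposited values (exact permutation p = 0.17, n = 4 against 4). Averaged over number pairs, 3 against 3, the exact permutation p was 0.10, the smallest that design allows.

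**Figure D4:**
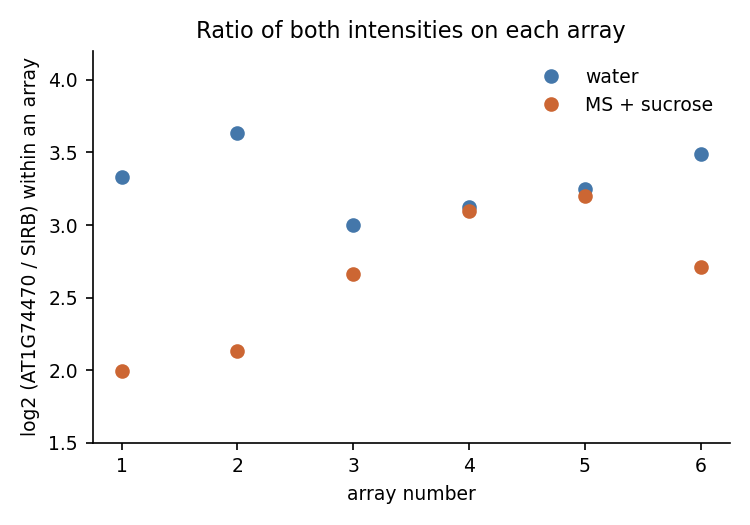
Log2 ratio of the AT1G74470 to the SIRB deposited intensity within each array against the array number, which labels the arrays and gives no order. The sucrose point lies below the water point at all 6 numbers, widely at numbers 1 and 2 and by little at numbers 4 and 5. The share of other gene pairs with this pattern was not taken.

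Of 128 genes in 9 lists of neighbouring pathways, 6 had a probe of their own, and after quantile normalization 2 were called lower and none higher in sucrose (limma at an adjusted p of 0.05). Over all probes 21.3% were called lower and 20.5% higher, and the 6 genes were not tested against these shares. In the list of the chlorophyll and heme branch, 3 of 40 genes were measured. HEMA3, a glutamyl-tRNA reductase isoform at the start of tetrapyrrole synthesis, had a mean intensity of 0.524 ± 0.0867 in water and one of 0.59 ± 0.143 in sucrose (SD, n = 6 each). Its difference was -0.68 ± 0.22 after quantile normalization (adjusted p = 0.029) but 0.15 as deposited (adjusted p = 0.48), so its direction rests on the scaling. With 1 array left out it passed in 6 of 12 fits (adjusted p from 0.0055 to 0.061), and not without water array 3, 5 or 6 or sucrose array 1, 2 or 4. HEMA3 also missed the threshold with number pairs averaged (limma adjusted p = 0.20) and without arrays 1 and 2 (0.15). With array number as a block it passed (0.024). CHLM, the magnesium-protoporphyrin IX methyltransferase of the chlorophyll branch, went from 0.212 ± 0.0493 to 0.382 ± 0.111 (SD, n = 6 each). It differed by -0.25 ± 0.14 after quantile normalization (adjusted p = 0.18) and rose by 0.83 as deposited (adjusted p = 0.0042). AT5G63290 (HEMN1), also of this list, lay under the floor throughout, so that no change could be seen in it.

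Elsewhere in these pathways, AT1G78620 (VTE6), which encodes the phytyl phosphate kinase that returns phytol to tocopherol synthesis, was the measured gene among 13 of chlorophyll breakdown and phytol recycling. Its difference was -0.50 ± 0.24 after quantile normalization (adjusted p = 0.12), -0.03 as deposited and -0.30 with cyclic loess (adjusted p = 0.20). With median centring it was -1.12 ± 0.26 and passed as lower (adjusted p = 0.0047). Z-ISO, the zeta-carotene isomerase and the measured gene among 14 of carotenoid synthesis, was at -0.20 ± 0.35 (adjusted p = 0.73). APS4, an ATP sulfurylase that activates sulfate, was the measured gene among 16 of sulfate assimilation. Its mean intensity of 0.256 ± 0.0395 on water arrays stood against 0.271 ± 0.0673 on sucrose arrays (SD, n = 6 each). The log2 difference was 0.05 as deposited (adjusted p = 0.90), and APS4 was lower by -1.03 ± 0.19 after quantile normalization (adjusted p = 0.0015). None of the 3 genes of the siroheme list, which holds the nitrite and sulfite reductases, had a probe of its own. The same held for the 10 genes of tocopherol and plastid quinone synthesis, the 14 of plastid isoprenoid supply, the 13 of nitrate and ammonium assimilation and the 7 of ferredoxin and its reductase.

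The genes whose pattern over the 12 arrays was most like each of these were found by the mean absolute difference of log2 normalized values, after each gene was centred on its own mean. The search covered 487 other genes above the floor on all arrays, and the median distance was 0.52 for AT1G74470 and 0.45 for SIRB. Nearest to AT1G74470 were AT4G16410 (distance 0.14), AT2G46630 (0.15) and AT2G19870 (0.16). Nearest to SIRB were RALFL32 (0.14), a gene of the RALF family of signalling peptides, AT2G47830 (0.15) and AT3G58610 (0.17), which encodes the ketol-acid reductoisomerase of branched-chain amino acid synthesis. The measure includes the difference between groups, so that the differences of these genes follow from the choice and are not given as results. The distance between AT1G74470 and SIRB was 0.23, which placed SIRB 34th for AT1G74470 and AT1G74470 16th for SIRB. Centred on each group's mean instead, which removes the difference between groups, none of the 3 genes nearest to AT1G74470 and 1 of the 3 nearest to SIRB, AT2G47830, were found again.

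**Figure D5:**
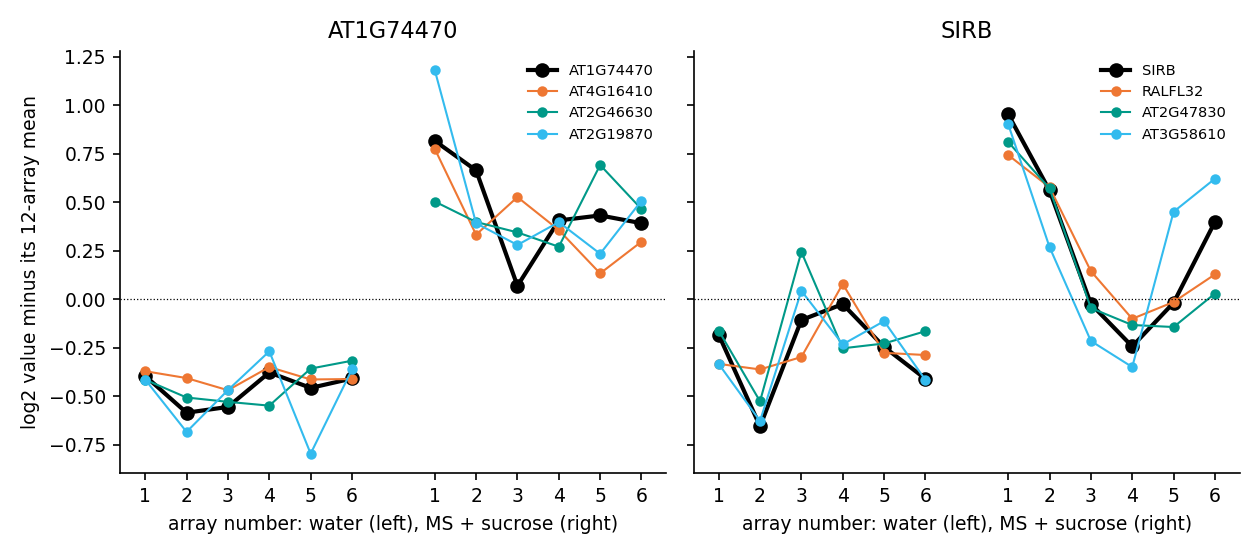
Log2 quantile-normalized value minus each gene's 12-array mean for AT1G74470, SIRB (black) and the 3 genes nearest to each, with water arrays 1 to 6 at the left and sucrose arrays 1 to 6 at the right of a panel. Lines only join the points of a gene. SIRB and its 3 nearest genes are highest on sucrose array 1 and below their mean on sucrose array 4. The nearest genes were chosen on these same values, so a shared pattern follows from the choice.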

How the data were processed

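The authors deposited 1 intensity per probe and array, never negative and at most 100; 2 to 8 probes per array were at 100. Their background correction, scaling and genome build are not given in the sources used here. No count of reads underlies the values, so the number of arrays limits precision. Here, array medians were made equal, a floor of 0.0487 (the 5th percentile of positive scaled intensities) was applied, and log2 values were quantile normalized. Differences are sucrose minus water from limma 3.58.1 in R 4.3.3, adjusted by Benjamini-Hochberg over 3439 probes. Of these, 692 had 1 gene, 870 several and 1877 none listed; names were updated with a table of assembly TAIR10.1, used for names alone, that held 690 of the 692. No column lacked a sample. The named genes were the 2 members, 3 nearest genes each by the distance given above, and every measured pathway gene. Members, lists and tests were chosen with earlier results of these data known. The labels do not say whether the samples of a group are separate plants, so p-values reflect only the spread between these samples, which may be technical. Deviations from the group mean of same-numbered arrays correlated at 0.43, 0.33, 0.27, 0.25, 0.21 and 0.19 for numbers 1 to 6, all over 0.1, so the numbers pair the arrays; the main fit has no block, and the fit with number as a block is given where it changes a call. Alternatives were other scalings, floors and filters, a variance trend, array weights, blocks and arrays left out. On simulated data for this comparison (3439 probes, 200 changed), 31.5%, 60.7% and 90.1% of changes of 0.5, 1 and 2 on the log2 scale were called, and 0.216% of unchanged probes. The simulated arrays had independent noise, no shift with intensity and 200 changed probes, against 1436 called on the real arrays. These rates therefore check the procedure and may not hold for the real arrays. Figures used matplotlib 3.10.9.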

Additional observations from a re-analysis of the deposited data

Results flagged for a closer look

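In 28 sets of 6 arrays (a named gene or the ratio of AT1G74470 to SIRB in a group), 3 had an array set apart from its neighbour by more of the range than Dixon's 95% critical value for 6 values, which about 1 set in 20 shows by chance. None was of AT1G74470, SIRB or their ratio. The log2 value of RALFL32 was -2.57 on water array 4, while the other 5 water arrays ran from -3.01 to -2.92. For AT2G19870 it was -0.19 on sucrose array 1, while the others ran from -1.14 to -0.86. For APS4 it was -1.96 on water array 5, while the others ran from -1.55 to -1.33.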

How the results depend on the processing

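Fits that combine a scaling with averaged number pairs or with the block, and the ratio without numbers 1 and 2, were chosen after seeing the data. The count of 1436 called probes lay between 1320 and 1470 with any 1 array left out, and was 730 with number pairs averaged, 750 within numbers 3 and 4, 674 within 5 and 6, and 940 with cyclic loess and pairs averaged. AT1G74470 stayed between 0.86 and 1.005 and past the threshold with any 1 array left out. It was at 0.70 within numbers 3 and 4 (adjusted p = 0.10) and at -0.22 in all 3 fits with median centring. SIRB was between 0.41 and 0.64 with 1 array left out, and passed in 3 of these 12 fits (limma adjusted p from 0.022 to 0.10). At the same 0.54 it missed the threshold with a floor at the 10th percentile (limma adjusted p = 0.051), the replicate block (0.12), number pairs averaged (0.22) and as a random block (0.11). It also missed it at 0.34 with 0.2 added in place of a floor, 0.39 with array weights, 0.23 without numbers 1 and 2, 1.18 within 1 and 2, 0.52 within 5 and 6, 0.50 with cyclic loess and pairs averaged, and 0.45 with median centring and pairs averaged or blocked, and reversed to -0.067 within 3 and 4. As deposited with pairs averaged, both genes passed (limma adjusted p = 0.0076 for AT1G74470 and 0.023 for SIRB). In that fit 1457 of 3439 probes were called in either direction, so a pass there is common. As deposited without averaging, 53.7% of all probes were called higher. The ratio difference lay between -0.78 and -0.54 with 1 array left out, had an exact sign permutation p of 0.031 in the replicate block, the smallest possible, and was -0.67 with pairs averaged and -1.42, -0.18 and -0.41 within the 3 pairs, designs too small to pass 0.05. It was -0.30 without numbers 1 and 2 (exact permutation p = 0.17, the smallest possible being 0.029) and 0.38 after quantile normalization. Of 341 values of the other 11 named genes, 285 had the same sign and the same call, 29 were no longer called, 13 were newly called and 14 changed sign. The genes nearest to AT1G74470 and SIRB are among these 11. Their differences follow from that choice, so their calls are no separate support. As deposited APS4 went to 0.052, CHLM to 0.83, HEMA3 to 0.15 and Z-ISO to 0.92, with the same values after averaging pairs. Within numbers 1 and 2 CHLM went to 0.065 and Z-ISO to 1.09, within 3 and 4 AT2G47830 to -0.085 and AT3G58610 to -0.19, within 5 and 6 AT1G78620 to 0.42, and Z-ISO lay between -0.36 and 0.014 with 1 array left out. With 1 array left out, AT3G58610 passed without sucrose array 3 or 4 and AT1G78620 without sucrose array 5. After quantile normalization, the replicate block ended the calls of SIRB and RALFL32 and changed no other call of a named gene. The cause was not tested. The dimmest genes have little signal above the floor.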
